A study of Mus musculus with 6 samples.

Results

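Matrix metalloproteinases (MMPs) and tissue inhibitors of metalloproteinases (TIMPs) were examined in abdominal aortas of Prdm16SMKO mice, in which *Prdm16* is deleted from vascular smooth muscle cells (VSMCs). The genes were the 6 MMPs *Mmp2*, *Mmp3*, *Mmp14*, *Mmp15*, *Mmp19* and *Mmp28* and the 4 TIMPs *Timp1* to *Timp4*, taken by name from the 55426 genes of the deposited table. All 10 passed the expression minimum of a mean of 0.5 TPM (the deposited unit, a level corrected for transcript length and scaled to a fixed total per library) that 15775 genes passed. Prdm16SMKO mice were homozygous for the floxed *Prdm16* allele (*Prdm16* fl/fl) and carried *Myh11*-CreERT2, a Cre recombinase that is made in smooth muscle and is active after tamoxifen. Control mice carried *Myh11*-CreERT2 as well. The Cre cassette lies on the Y chromosome, so all mice were male, and they were on the C57BL/6J background. Tamoxifen was given by gavage at 75 mg/kg/day for 5 days at 8 to 10 weeks of age, and aortas were taken for RNA 2 weeks later, without any treatment to induce aneurysm, a schedule stated for the mice as a whole and not by group. Each group had 3 libraries, 1 per mouse, made from the polyadenylated RNA of the whole abdominal aorta.

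MMPs are zinc-dependent proteinases that cut the collagens, elastin and proteoglycans of the extracellular matrix (ECM). Most are made as inactive proenzymes that other proteinases switch on, and TIMPs block the active enzymes by binding the catalytic site. In the artery wall the balance between the families bears on the integrity of the elastic layers, and its loss is a known feature of abdominal aortic aneurysm.

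*Prdm16* itself, the targeted gene, had lower TPM in every Prdm16SMKO library (14.8 to 27.7 TPM) than in every control library (30.8 to 36.8 TPM), with an adjusted p of 0.376 (limma, Benjamini-Hochberg), so the labels of the groups were not contradicted by it. Whole aorta was sequenced, so fewer cells of a type and less RNA per cell cannot be told apart in any value below. The smooth muscle genes *Myh11*, *Acta2* and *Tagln* were abundant in all 6 libraries. Transcripts of mitochondrial genes took 15.8% to 27.4% of a library's TPM and those of the 45S ribosomal RNA locus 15.5% to 31.4%, and the TPM of every other gene moves with these shares.

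None of the 10 genes passed an adjusted p of 0.05 between Prdm16SMKO and control aortas (limma on log2(TPM + 0.5), Benjamini-Hochberg over all tested genes), where 0.355% of all tested genes did. An unadjusted p under 0.05 was reached by 2 of the 10, *Timp4* and *Timp1*, against 8.74% of all tested genes. These 2 were also the ones whose Prdm16SMKO values all lay below all control values, which 5.76% of all tested genes showed. The number whose Prdm16SMKO values all lay above all control values was 0, against 7.02% of all tested genes, and 8 of the 10 had overlapping groups. The median log2 fold change was −0.10 over the 10 genes, 0.03 over the 6 MMPs and −0.25 over the 4 TIMPs, beside 0.02 over all tested genes. With 3 libraries against 3, a two-sided exact permutation test of a single gene cannot give a p below 0.1.

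**Figure D1:**
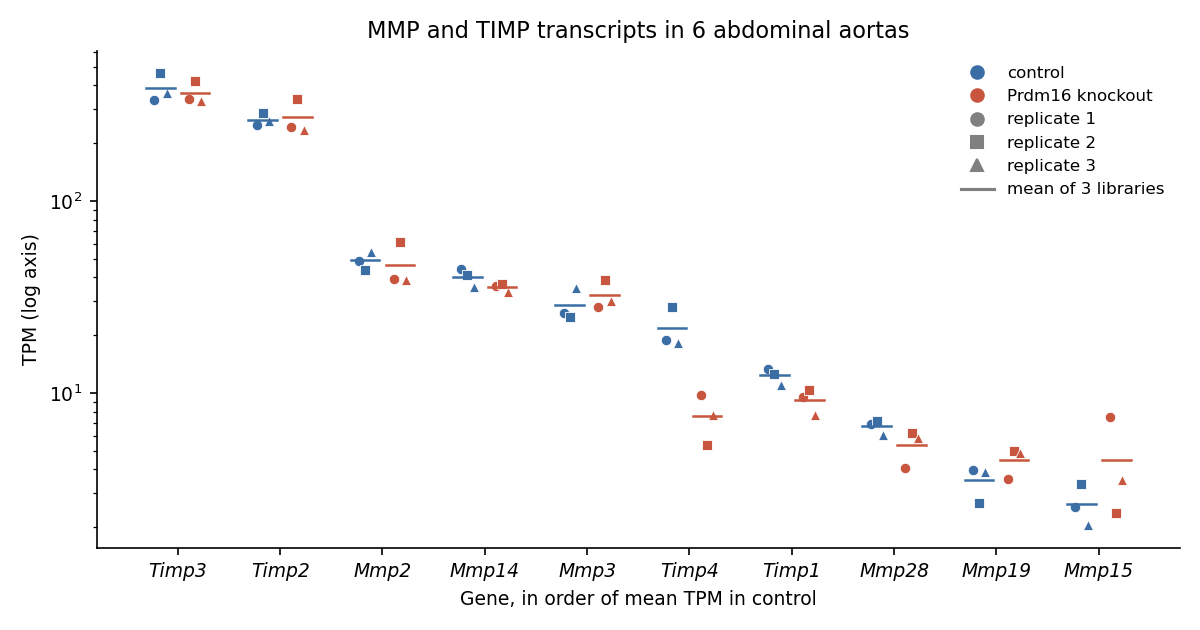
TPM (log axis) of the 10 genes in each of the 3 control (blue) and 3 Prdm16 knockout (red) libraries, with horizontal lines at the means and the replicate shown by the symbol. *Timp4*, at 18.2 to 28.1 TPM in control and 5.38 to 9.74 TPM in knockout libraries, and *Timp1* are the genes whose groups do not overlap.

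In control aortas the most abundant of the 10 transcripts were those of 2 inhibitors. In TPM, *Timp3* led with a control mean of 388 ± 65.5 (SD, n = 3), followed by *Timp2* at 265 ± 19.6. The MMPs *Mmp2*, *Mmp14* and *Mmp3* came next at 49.0 ± 5.38, 40.4 ± 4.47 and 28.8 ± 5.60 TPM, so the mean of *Timp2* was 5.40 times that of *Mmp2*. *Timp4* and *Timp1* were at 21.7 ± 5.52 and 12.3 ± 1.17 TPM, and *Mmp28*, *Mmp19* and *Mmp15* were lowest at 6.70 ± 0.587, 3.52 ± 0.732 and 2.66 ± 0.672 TPM. Among neighbours in this order, the control values overlapped for *Mmp2* and *Mmp14*, for *Mmp3* and *Timp4* and for *Mmp19* and *Mmp15*. Over all 6 libraries, the neighbours that did not overlap were *Timp2* and *Mmp2*, and *Timp1* and *Mmp28*.

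The bases before the start sites of *Timp4* and *Timp1*, the 2 inhibitors with lower values in every Prdm16SMKO library, and of *Mmp3*, an MMP whose groups overlapped, are printed for comparison. The sequences are the 250 bases before the start on the strand of the gene, 5′ to 3′, from RefSeq windows on GRCm38.p6 at chr6:115252206-115252455 (minus strand), chrX:20869916-20870165 (plus strand) and chr9:7445572-7445821 (plus strand).
Timp4: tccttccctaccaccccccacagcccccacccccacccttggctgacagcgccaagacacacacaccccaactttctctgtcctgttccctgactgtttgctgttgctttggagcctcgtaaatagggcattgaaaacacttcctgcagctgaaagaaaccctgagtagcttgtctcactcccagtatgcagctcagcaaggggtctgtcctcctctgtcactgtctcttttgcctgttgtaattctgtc
Timp1: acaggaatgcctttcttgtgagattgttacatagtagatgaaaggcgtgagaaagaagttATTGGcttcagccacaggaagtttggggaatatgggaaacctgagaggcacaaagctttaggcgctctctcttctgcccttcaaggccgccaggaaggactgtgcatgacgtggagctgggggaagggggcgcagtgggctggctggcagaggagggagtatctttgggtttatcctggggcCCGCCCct
Mmp3: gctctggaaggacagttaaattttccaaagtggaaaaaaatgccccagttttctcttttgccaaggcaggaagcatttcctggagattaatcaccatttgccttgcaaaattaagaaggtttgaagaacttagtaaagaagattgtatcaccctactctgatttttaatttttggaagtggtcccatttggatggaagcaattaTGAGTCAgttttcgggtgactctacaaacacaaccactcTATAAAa

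Capitals mark matches, on either strand, to 5 motifs that were searched in these windows together with the 50 bases after the start. The motifs were the AP-1 site TGANTCA with C or G at N, which is bound by Fos and Jun proteins, the TATA box TATAAA, the GC box GGGCGG, the CCAAT box and the CArG box of serum response factor. Of 32851 such RefSeq windows of 300 bases, 5.20% held the AP-1 site, 13.6% the TATA box, 35.7% the GC box, 37.4% the CCAAT box and 1.63% the CArG box. A window was found for 8 of the 10 genes, and not for *Mmp2* and *Mmp19*. The *Timp4* window held none of the 5 motifs and 2 CpG dinucleotides. The *Timp1* window held a CCAAT box and a GC box, at positions −190 and −8 from the start, and 8 CpG. The *Mmp3* window was the 1 of the 8 with an AP-1 site and with a TATA box, at positions −46 and −7, and had 1 CpG. The windows of *Timp2*, *Timp3*, *Mmp15* and *Mmp28* each held a GC box and had 20 to 25 CpG, and that of *Mmp14* had 10 CpG, 2 GC boxes and 2 CCAAT boxes. Matches of this kind describe the letters only, and the data hold no measurement of binding.

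*Timp4* (ENSMUSG00000030317), an inhibitor known for its expression in heart and vessels, lies on the minus strand of chromosome 6 of GRCm38 from 115241892 to 115252205 (GENCODE M21). Control replicates 1 to 3 held 18.9, 28.1 and 18.2 TPM of it, and Prdm16SMKO replicates 1 to 3 held 9.74, 5.38 and 7.73 TPM. The lowest control value was above the highest Prdm16SMKO value, and control replicate 2 stood highest of the 6. Control mice averaged 21.7 ± 5.52 TPM and Prdm16SMKO mice 7.62 ± 2.18 TPM (SD, n = 3 each), which is 64.9% lower. Its log2 fold change was −1.46 with a standard error of 0.25 and a 95% interval of −2.03 to −0.89, and its adjusted p of 0.0620 missed the threshold of 0.05 (limma, Benjamini-Hochberg). The exact permutation test gave 0.1, the smallest p it can give. By unadjusted p (0.000295, limma), *Timp4* ranked 75 of the 15775 genes.

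The side of the threshold on which *Timp4* fell depended on the processing. It was called in 6 of the 11 other settings tried, with adjusted p from 0.0120 under array weights, which give less weight to libraries with large residuals, to 0.0441 under quantile normalization (limma, Benjamini-Hochberg). With no expression minimum, which raises the number of genes tested to 26559, the adjusted p was 0.201. With 1 library left out in turn it was called without Prdm16SMKO replicate 1 (adjusted p = 0.0372) and not called without any of the other 5 (0.118 to 0.191). The unadjusted p stayed under 0.05 and the direction was lower in all 17 alternatives, with log2 fold changes from −1.65 to −1.25.

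**Figure D2:**
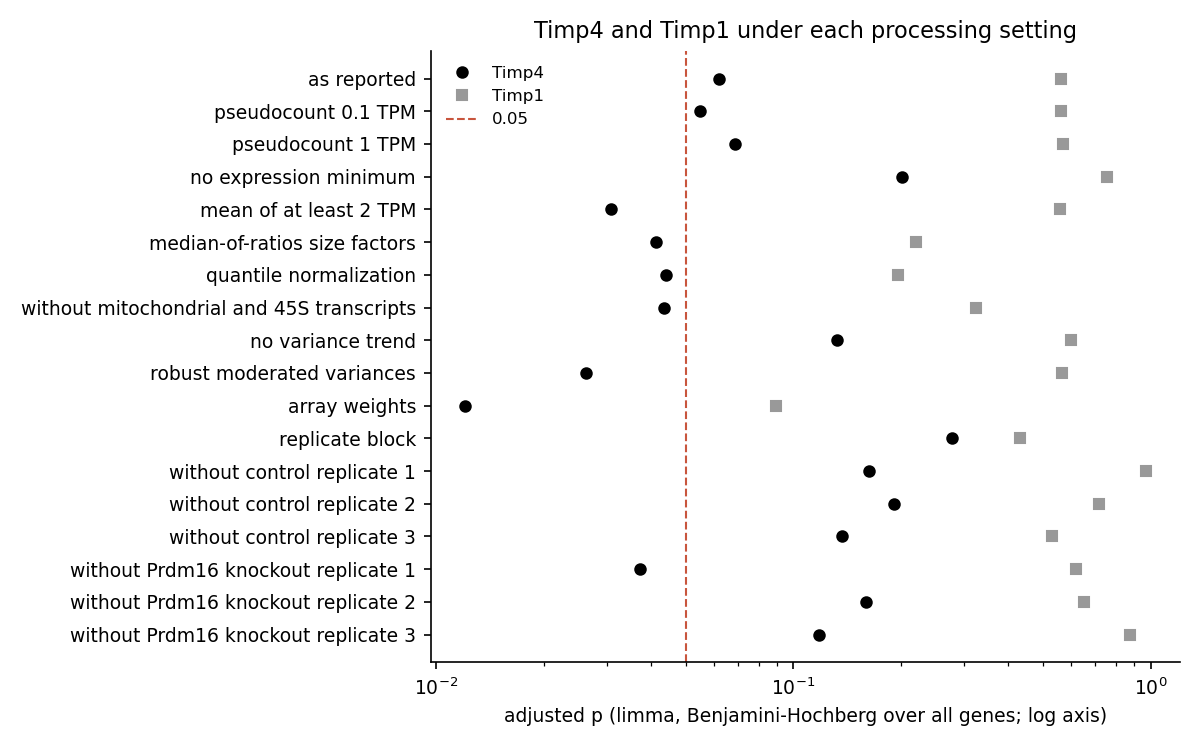
Adjusted p (limma, Benjamini-Hochberg, log axis) of *Timp4* (black circles) and *Timp1* (grey squares), with a dashed line at 0.05. Rows are the fit reported here (labelled as reported) and each of the 17 alternatives. *Timp4* falls on both sides of the line, from 0.0120 to 0.278, and *Timp1* stays to its right, from 0.0894 to 0.969.

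Gene lists are given beside *Timp4* with their values in the same libraries, and their part in its difference was not tested. Of 11 immediate-early genes tested, 5 were called, against 0.355% of all tested genes, and all 11 had lower means in Prdm16SMKO mice, against 7223 of the 15775 tested, and the summed level of the list was 601 to 832 TPM in control and 216 to 364 TPM in Prdm16SMKO libraries. Of 8 VSMC markers, 0 were called and 6 were lower, with sums of 15179 to 25710 TPM in control and 11782 to 18072 TPM in Prdm16SMKO libraries, which overlap. Of 5 chondrocyte markers, 2 could be tested and 0 were called, with sums of 4.14 to 6.69 TPM against 2.31 to 2.48 TPM, without overlap. *Acan*, which encodes the proteoglycan aggrecan of cartilage and also of the artery wall, was at 2.97, 5.14 and 2.79 TPM in control and 1.33, 1.08 and 1.57 TPM in Prdm16SMKO libraries, without overlap (limma, unadjusted p = 0.00280, adjusted p = 0.191). Among the defining cartilage markers, *Col2a1*, type II collagen, was at 0.06 to 0.53 TPM in control and 0.02 to 0.08 TPM in Prdm16SMKO libraries, and *Matn1* was at 0 in all 6. *Sox9*, the other marker that could be tested, overlapped, at 0.64 to 1.31 TPM in control and 0.57 to 0.95 TPM in Prdm16SMKO libraries (limma, adjusted p = 0.929). *Cnmd* had a mean of 0.233 TPM in control and a higher one of 0.273 TPM in Prdm16SMKO mice. *Timp4* lies inside *Syn2*, a synaptic vesicle gene on the opposite strand, and 90 of its exonic bases (1.53%) are shared with it. Whether reads were assigned by strand is not given in the sources used here, so reads from these bases cannot be told apart. *Syn2* was at 1.35, 5.80 and 1.94 TPM in control replicates 1 to 3 and at 36.4, 0.75 and 0.64 TPM in Prdm16SMKO replicates 1 to 3. Its highest library, Prdm16SMKO replicate 1, was also the one of the 3 Prdm16SMKO libraries with the most *Timp4*.

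*Timp1* (ENSMUSG00000001131), a secreted inhibitor that is inducible in many cell types and blocks the membrane-type MMPs poorly, lies on chromosome X from 20870166 to 20874735, inside an intron of *Syn1* on the opposite strand. In TPM it was at 13.4, 12.6 and 11.1 in the control libraries and at 9.58, 10.4 and 7.66 in the Prdm16SMKO libraries. The groups did not overlap, although the closest values, control replicate 3 and Prdm16SMKO replicate 2, were near each other. Means were 12.3 ± 1.17 and 9.22 ± 1.41 TPM (SD, n = 3 each), or 25.3% lower in Prdm16SMKO mice. Its log2 fold change of −0.41 (SE 0.18) had an unadjusted p of 0.0476 and an adjusted p of 0.561 (limma, Benjamini-Hochberg), and it ranked 1337 by p. *Timp1* was lower in all 17 alternatives and called in 0, and its unadjusted p was under 0.05 in 12 of them.

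*Timp3* and *Timp2* carried nearly all of the TIMP transcripts. *Timp3* (ENSMUSG00000020044, chromosome 10, 86300372 to 86349506), the TIMP that stays bound to the ECM and also inhibits ADAM proteinases, was at 336, 462 and 367 TPM in control and at 340, 423 and 331 TPM in Prdm16SMKO libraries. Replicate 2 was highest in each group and the groups overlapped. The log2 fold change was −0.09 (SE 0.18), and its 95% interval covers fold changes from 0.712 to 1.25 (limma, adjusted p = 0.967). *Timp3* lies inside *Syn3* on the opposite strand and shares 1733 exonic bases (21.3%) with it, and *Syn3* was at 1.29 to 2.19 TPM in all 6 libraries. *Timp2* (ENSMUSG00000017466, chromosome 11, minus strand, 118301069 to 118355740) inhibits MMPs and also forms the complex through which MMP14 activates the proenzyme of MMP2. It was at 248, 286 and 261 TPM in control and at 243, 340 and 235 TPM in Prdm16SMKO libraries. Prdm16SMKO replicate 2 was above and the other 2 Prdm16SMKO libraries were below all control libraries. Its log2 fold change was 0.02 (SE 0.18), with a 95% interval of fold changes from 0.767 to 1.35 (limma, adjusted p = 0.993).

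*Mmp2* (ENSMUSG00000031740, chromosome 8, 92827291 to 92853420), the gelatinase that cuts denatured collagen, type IV collagen and elastin, was the most abundant of the 6 MMPs. In TPM it was at 48.8, 43.8 and 54.5 in control and at 39.1, 61.5 and 38.9 in Prdm16SMKO libraries. Prdm16SMKO replicate 2 was highest of the 6 and the other 2 Prdm16SMKO libraries were lowest, so the SD was 5.38 in control and 13.0 in Prdm16SMKO mice. The log2 fold change was −0.11 (SE 0.21), with a 95% interval of fold changes from 0.672 to 1.29 (limma, adjusted p = 0.962). It lay at or just above 0 without Prdm16SMKO replicate 1 or 3. In cultured VSMCs and A7r5 cells the paper reported *Mmp2* transcripts slightly higher on *Prdm16* knockdown, and MMP2 activity without appreciable change. The fibroblast markers, none called of 8 tested, had sums of 781 to 980 TPM in control and 676 to 1278 TPM in Prdm16SMKO libraries. Prdm16SMKO replicate 2 was highest for this sum, as for *Mmp2*, *Mmp3*, *Mmp19* and *Timp2*. Within its group it was also highest for *Mmp14*, *Mmp28*, *Timp1* and *Timp3*, and lowest for *Mmp15* and *Timp4*. The part of the fibroblast markers in these values was not tested.

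*Mmp14* (ENSMUSG00000000957, chromosome 14, 54431612 to 54445364) encodes a membrane-type MMP that cuts fibrillar collagen at the cell surface and activates the MMP2 proenzyme. Its level was 44.5, 41.0 and 35.6 TPM in control and 36.2, 37.1 and 33.5 TPM in Prdm16SMKO libraries, a narrower spread than that of *Mmp2*, with control replicate 3 below 2 of the Prdm16SMKO libraries. Its log2 fold change was −0.18 (SE 0.15), with a 95% interval of fold changes from 0.700 to 1.12 (limma, adjusted p = 0.869). *Mmp3* (ENSMUSG00000043613, chromosome 9, 7445822 to 7455975), a stromelysin that cuts proteoglycans and can activate other proenzymes, was at 26.2, 24.9 and 35.2 TPM in control and at 28.1, 38.7 and 30.0 TPM in Prdm16SMKO libraries. The groups overlapped, the highest value again being Prdm16SMKO replicate 2. The log2 fold change was 0.17 (SE 0.19), with a 95% interval of fold changes from 0.827 to 1.52 (limma, adjusted p = 0.922). With 1 library left out it ran from 0.03, without Prdm16SMKO replicate 2, to 0.32, without control replicate 3.

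*Mmp15* (ENSMUSG00000031790, chromosome 8, 95352268 to 95375080), another membrane-type MMP, was at 2.55, 3.38 and 2.05 TPM in control and at 7.50, 2.36 and 3.52 TPM in Prdm16SMKO libraries. Prdm16SMKO replicate 1 stood apart, and without it the log2 fold change went from 0.54 (95% interval −0.30 to 1.37) to 0.12 (limma, adjusted p = 0.821 and 0.986). Without Prdm16SMKO replicate 2 it was 0.87 (limma, unadjusted p = 0.0359, adjusted p = 0.629). Prdm16SMKO replicate 1 also had the highest *Syn1*, at 12.3 TPM against 0.51 to 2.96 TPM in the other 5 libraries. It had the highest sum of the 6 Schwann cell markers, at 203 TPM against 22.0 to 95.6 TPM in the other 5. None of the Schwann cell markers was called and all 6 had higher means in Prdm16SMKO mice, beside 8552 of the 15775 genes tested. Their part in the *Mmp15* values was not tested.

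*Mmp19* (ENSMUSG00000025355, chromosome 10, 128790910 to 128800824), a secreted MMP that cuts basement membrane proteins, was at 3.99, 2.68 and 3.90 TPM in control and at 3.59, 5.00 and 4.90 TPM in Prdm16SMKO libraries. Prdm16SMKO replicates 2 and 3 were above all control libraries, and the log2 fold change was 0.32 (95% interval −0.20 to 0.83, limma, adjusted p = 0.828). It shares 789 exonic bases (22.3%) with *Tmem198b* and 212 (6.00%) with *Gm47093*, both on the opposite strand. *Tmem198b* had means of 6.24 and 6.27 TPM in control and Prdm16SMKO mice, and *Gm47093* was at or below 0.09 TPM in all libraries. *Mmp28* (ENSMUSG00000020682, chromosome 11, minus strand, 83440768 to 83463071), known as epilysin, was at 6.86, 7.19 and 6.05 TPM in control and at 4.07, 6.20 and 5.85 TPM in Prdm16SMKO libraries. Prdm16SMKO replicate 2 was above the lowest control library, and the log2 fold change was −0.31 (95% interval −0.77 to 0.15, limma, adjusted p = 0.803). With 1 library left out it ran from −0.42, without Prdm16SMKO replicate 2, to −0.14, without replicate 1. *Mmp28* shares 466 exonic bases (12.0%) with *1700020L24Rik* on the opposite strand, which was at 12.2 to 19.2 TPM in control and 5.73 to 12.2 TPM in Prdm16SMKO libraries and, like *Mmp28*, was lowest in Prdm16SMKO replicate 1. These neighbouring genes were looked up after the values were seen.

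**Figure D3:**
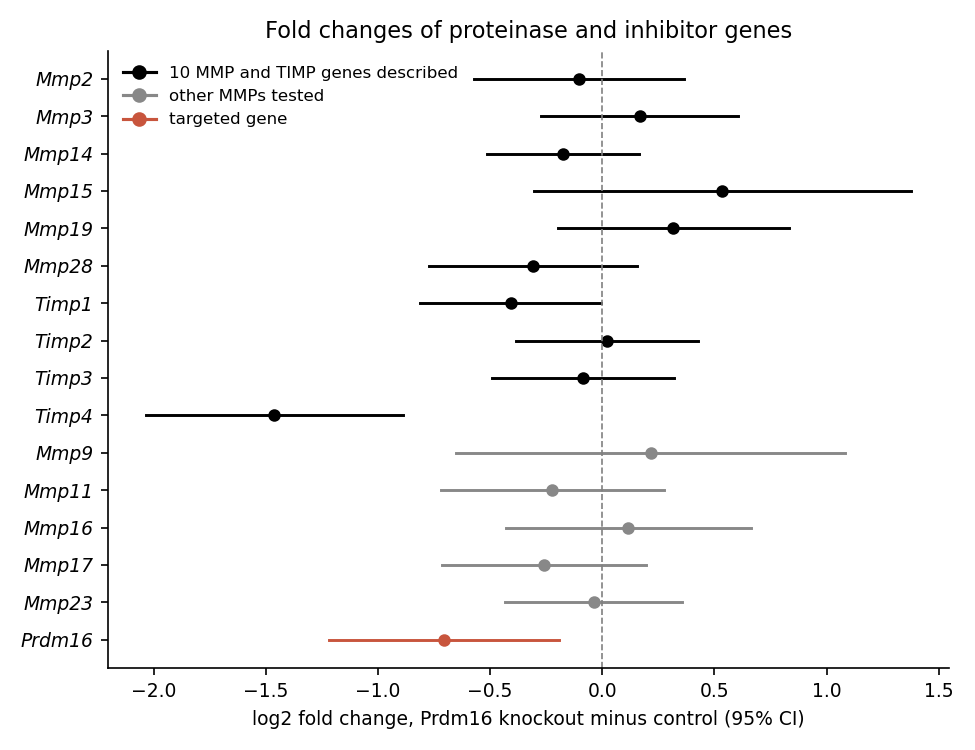
Log2 fold changes of Prdm16 knockout against control with 95% confidence intervals (limma) for the 10 genes (black), the other MMPs that passed the expression minimum (grey) and *Prdm16* (red). The interval of *Timp4*, −2.03 to −0.89, lies apart from 0, that of *Timp1* ends just below 0, and those of the other 8 genes cover 0.

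As sums, the 4 TIMPs reached 616 to 789 TPM in control and 582 to 778 TPM in Prdm16SMKO libraries, and the 6 MMPs reached 123 to 137 TPM and 117 to 151 TPM. All 23 genes of the MMP family summed to 246 to 280 TPM in control and 226 to 288 TPM in Prdm16SMKO libraries. The ratios and shares below therefore hold for the 6 MMPs and are not those of the whole family. The ratio of summed TIMP to summed MMP transcripts within a library was 4.64 to 6.42 in control (mean 5.28 ± 0.989, SD, n = 3) and 4.99 to 5.16 in Prdm16SMKO mice (mean 5.08 ± 0.0841, SD, n = 3), so the Prdm16SMKO values lay within the control range. *Timp2* and *Timp3* together made up 94.8% to 98.0% of the TIMP sum, and *Mmp2*, *Mmp3* and *Mmp14* made up 87.2% to 91.3% of the sum of the 6 MMPs. The share of *Timp4* in the TIMP sum was 2.77% to 3.56% in control and 0.691% to 1.62% in Prdm16SMKO libraries. Within a library, where the scaling cancels, the ratio of *Timp4* to *Timp3* was 0.0496 to 0.0608 in control and 0.0127 to 0.0286 in Prdm16SMKO mice, and that of *Timp4* to *Timp1* was 1.41 to 2.24 and 0.516 to 1.02. The groups did not overlap in either ratio. For the 3 partners in activating MMP2, the ratio of *Timp2* to *Mmp14* was 6.62 ± 0.930 in control and 7.63 ± 1.33 in Prdm16SMKO mice, and that of *Mmp2* to *Mmp14* was 1.23 ± 0.259 and 1.30 ± 0.314 (SD, n = 3), differences within the spread between replicates.

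**Figure D4:**
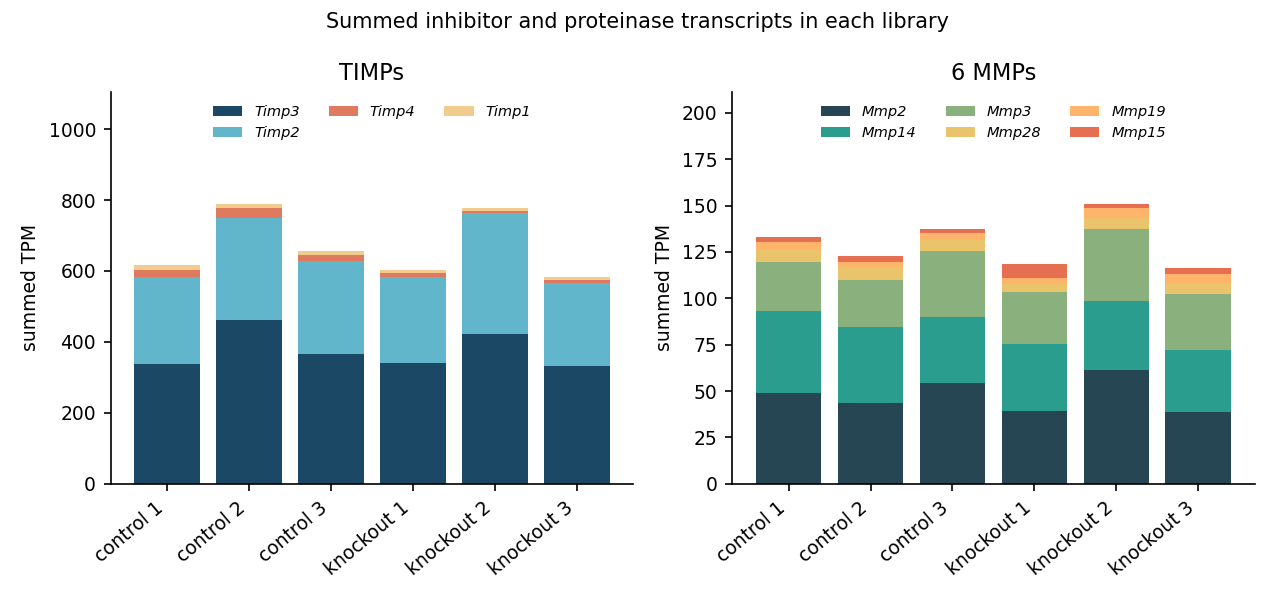
Summed TPM of the 4 TIMPs (left) and of the 6 MMPs (right) in each library, stacked by gene, with bars starting at 0 and a scale of its own for each panel. *Timp2* and *Timp3* make up 94.8% to 98.0% of every TIMP bar, so the lower *Timp4* of the knockout libraries changes the bar height little.

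The other MMPs above the expression minimum showed no call either. Of 23 genes in the MMP family, 11 passed the expression minimum and 5 (*Mmp1a*, *Mmp1b*, *Mmp7*, *Mmp10* and *Mmp20*) were listed at 0 in all libraries. Of the 11, 0 were called and 0 had an unadjusted p under 0.05 (limma), against 0.355% and 8.74% of all tested genes. Of these MMPs 5 were higher and 6 lower, with a median log2 fold change of −0.04. The MMP with the highest level was *Mmp23*, which encodes a membrane-anchored enzyme of atypical structure, at 84.2 ± 15.4 TPM in control and 81.4 ± 8.83 TPM (SD, n = 3) in Prdm16SMKO mice. *Mmp17*, a membrane-type MMP held by a lipid anchor, was at 32.8 ± 6.48 and 27.2 ± 4.75 TPM (SD, n = 3). *Mmp16*, a membrane-type MMP, had means of 5.56 and 6.11 TPM, and *Mmp11*, a stromelysin activated by furin, had means of 5.90 and 4.87 TPM. *Mmp9*, the second gelatinase, which the study followed in cultured VSMCs and which is made in quantity by leukocytes, was near the minimum at 1.76, 1.22 and 0.92 TPM in control and 0.89, 2.96 and 1.30 TPM in Prdm16SMKO libraries. Its log2 fold change was 0.22 with a wide 95% interval of −0.65 to 1.08 (limma, adjusted p = 0.955). In cultured cells given TNF-α the paper reported *Mmp9* transcripts lower on *Prdm16* knockdown, and MMP9 activity without appreciable change. The macrophage markers had higher means in Prdm16SMKO mice for 8 of 8 genes, beside 8552 of the 15775 tested, with 0 called, 5 at an unadjusted p under 0.05, against 8.74% of all tested genes, and sums of 61.4 to 94.9 TPM against 92.5 to 175 TPM, and the highest sum was in Prdm16SMKO replicate 2, as for *Mmp9*. *Mmp12*, macrophage elastase, was below the expression minimum, at 0.08, 0.11 and 0.20 TPM in control and 0.39, 0.37 and 0.52 TPM in Prdm16SMKO libraries. Its groups did not overlap, and with no expression minimum its log2 fold change was 0.56 (limma, unadjusted p = 0.0102, adjusted p = 0.514). *Adam12*, a metalloproteinase of the related ADAM family that the study names, was at 0.43 to 0.95 TPM in control and 0.35 to 2.41 TPM in Prdm16SMKO libraries (limma, adjusted p = 0.989). The paper reported *Adam12* higher on *Prdm16* knockdown in cultured rat VSMCs, PRDM16 bound at its promoter there, and higher levels in human aneurysms. Those are other samples than these aortas.

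Of 12 genes that activate MMPs or induce them, 8 could be tested, with 2 higher and 6 lower. None was called, against 0.355% of all tested genes. An unadjusted p under 0.05 (limma) was reached by 1, against 8.74% of all tested genes. Groups did not overlap for 1 higher gene (*Plat*) and 1 lower gene (*Furin*), against 7.02% and 5.76% of all tested genes. *Plat*, tissue plasminogen activator, which makes the plasmin that activates several MMP proenzymes, was the gene with an unadjusted p under 0.05 (limma). It was at 19.4, 26.1 and 17.7 TPM in control and at 38.9, 43.8 and 35.3 TPM in Prdm16SMKO libraries, without overlap. Its log2 fold change was 0.90 (SE 0.18, limma, adjusted p = 0.106), and it was called under 4 of the 17 alternatives. *Furin*, a convertase that activates the membrane-type MMPs, was at 32.7 ± 4.88 TPM in control and 25.2 ± 1.16 TPM (SD, n = 3) in Prdm16SMKO mice without overlap, with a log2 fold change of −0.36 (limma, adjusted p = 0.588). *Bsg*, which encodes the MMP inducer basigin, had means of 335 and 298 TPM and overlapping groups.

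Of 12 genes that restrain or clear MMPs by routes other than TIMPs, 8 could be tested, with 4 higher and 4 lower. None was called, against 0.355% of all tested genes. An unadjusted p under 0.05 (limma) was reached by 1, against 8.74% of all tested genes. *Spock2*, which encodes a matrix proteoglycan of the testican family, was at 9.09, 12.3 and 11.5 TPM in control and at 28.0, 17.6 and 11.5 TPM in Prdm16SMKO libraries, with the highest value again in Prdm16SMKO replicate 1 (log2 fold change 0.69, limma, adjusted p = 0.556). *Reck*, a membrane-anchored MMP inhibitor, had means of 24.4 and 22.7 TPM, and *Serpine2*, an inhibitor of thrombin and plasminogen activators, had means of 514 and 446 TPM, with overlapping groups for both.

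Among 16 ECM genes whose products MMPs cut, 1 was called, against 0.355% of all tested genes. Means in Prdm16SMKO mice were lower for 12 and higher for 4, beside 7223 lower and 8552 higher of all tested genes, and the median log2 fold change was −0.44. An unadjusted p under 0.05 was reached by 7, all lower, against 8.74% of all tested genes in either direction (limma). The called gene was *Eln*, elastin, at 2690 ± 793 TPM in control and 765 ± 172 TPM (SD, n = 3) in Prdm16SMKO mice, a log2 fold change of −1.80 (limma, adjusted p = 0.0312) that was called in 10 of the 17 alternatives and not without any 1 of the control libraries or without Prdm16SMKO replicate 3. *Vcan*, the proteoglycan versican, was at 27.3 ± 3.99 and 17.1 ± 1.32 TPM, and *Col3a1*, type III collagen, was at 860 ± 61.5 and 521 ± 127 TPM (SD, n = 3), each without overlap and with adjusted p of 0.208 and 0.234 (limma). Summed over the 16 genes, control libraries had 8517 to 12220 TPM and Prdm16SMKO libraries 5060 to 7325 TPM. *Timp4* and *Eln* both separated the groups, while *Timp2* and *Timp3* did not, and a link between them was not tested.

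**Figure D5:**
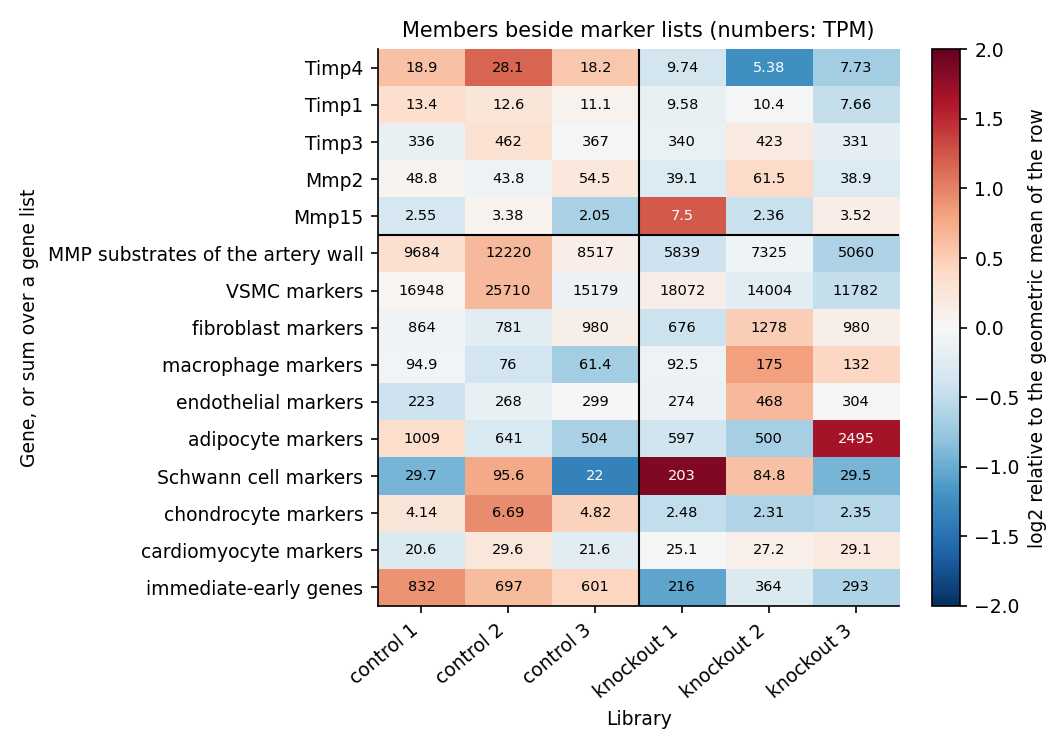
TPM (numbers) of 5 of the genes, and below the line the summed TPM of gene lists, in each library, coloured by log2 relative to the geometric mean of the row. The *Timp4* row separates control from knockout libraries as the substrate, chondrocyte and immediate-early rows do, and *Mmp15* is highest in knockout replicate 1, where the Schwann cell sum is 203 TPM. Of the chondrocyte list, *Acan* separated the groups and *Sox9* did not.

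The remaining marker lists did not separate the groups. The endothelial sums were 223 to 299 TPM in control and 274 to 468 TPM in Prdm16SMKO libraries, and the cardiomyocyte sums were 20.6 to 29.6 and 25.1 to 29.1 TPM. The adipocyte sum was 2495 TPM in Prdm16SMKO replicate 3 against 500 to 1009 TPM in the other 5 libraries. Mesothelial markers summed to at most 0.64 TPM in any library. No endothelial, cardiomyocyte or adipocyte marker was called, and no mesothelial marker passed the expression minimum.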

How the data were processed

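RNA of 3 control and 3 Prdm16SMKO abdominal aortas, 1 library per mouse, was sequenced by the authors as pairs of 151 bp at an average of 40 M pairs, per the labels. The authors deposited TPM values per gene. The submitters' processing notes name cutadapt 2.3, STAR 2.7.8a, RSEM 1.3.3 and the build GRCm38, and the annotation release and strand setting are not given in the sources used here. Depth per library is unknown from these values, so neither a counting error nor a detection limit is given. Here, log2(TPM + 0.5) of genes averaging 0.5 TPM or more was fitted with limma 3.58.1 (R 4.3.3), with a variance trend, two-sided p-values and Benjamini-Hochberg adjustment over 15775 genes. The fold change understates the change of low genes. The fit was also run on simulated data drawn from the means and spreads of these 15775 genes, with 200 shifted. It called 20 of them and 1 other gene at a log2 shift of 1. At a shift of 2 it called 166 of them and 11 other genes. Data drawn gene by gene hold no difference shared across a library, such as that in mitochondrial share. These counts therefore do not show how many true or false calls the fit makes in these libraries. No pair of libraries was identical. Positions are from GENCODE M21. Summaries and plots used Python 3.11.15.

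The 10 genes and all gene lists were chosen with earlier results of these data known. By the rule for naming genes, the text gives all 10 genes, *Prdm16*, the other MMPs above the minimum, and of the activation, restraint and substrate lists the called genes and the 3 with the smallest p, besides *Adam12* and *Syn1* to *Syn3*. *Mmp12*, the MMPs listed at 0, single marker genes and the genes overlapping *Mmp19* and *Mmp28* were named outside it with values known. Alternatives were pseudocounts of 0.1 and 1, no minimum, a minimum of 2 TPM, median-of-ratios and quantile scaling, TPM rescaled without mitochondrial and 45S transcripts, no variance trend, robust variances, array weights, a replicate block and each library left out in turn.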

Additional observations from a re-analysis of the deposited data

How the results depend on the processing

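*Timp4* was called, so that 1 of the 10 genes and 1 of the 4 TIMPs was called in place of 0, with a minimum of 2 TPM, median-of-ratios size factors, quantile normalization, TPM without mitochondrial and 45S transcripts, robust variances and array weights. With single libraries left out, each count ran from 0 to 1, the 1 coming without Prdm16SMKO replicate 1. Of the activation list, 1 gene (*Plat*) was called in place of 0 with median-of-ratios, quantile, TPM without mitochondrial and 45S transcripts and array weights. Of the substrate list, 0 were called in place of 1 with no minimum, no variance trend and the replicate block, 2 with median-of-ratios and quantile, 3 with array weights, and 0 to 1 with single libraries left out. The log2 fold change of *Mmp2* turned from −0.11 to 0.0017 without Prdm16SMKO replicate 1 and to 0.0053 without replicate 3 (−0.32 to 0.01 over the left-out libraries). That of *Timp2* turned from 0.02 to −0.02 without control replicate 1 and to −0.15 without Prdm16SMKO replicate 2 (−0.15 to 0.12 over the left-out libraries, −0.15 to 0.14 over all alternatives). That of *Timp3* turned from −0.09 to 0.0016 with quantile, 0.11 with array weights and 0.046 without control replicate 2 (−0.20 to 0.046 over the left-out libraries, −0.20 to 0.11 over all alternatives). The log2 difference in the summed TIMP to MMP ratio was −0.04, and 0.11 without control replicate 2. That shift was under 1 SD of the log2 ratio, pooled over both groups. Of 296 values recomputed, 254 were rated as unchanged. For a fold change this meant the same direction and the same side of the threshold. For a count of called genes it meant an equal count, and for the TIMP to MMP ratio a shift under 1 SD, whatever its direction. The cause of the other changes was not tested. The number of genes tested, 15775 in the fit reported here, also differed between settings. It was 26559 with no minimum, 12125 with a minimum of 2 TPM and 17751 without mitochondrial and 45S transcripts. With a library left out it was 15609 to 15912.

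The number of genes called over the whole table was 56 in the fit reported here. It was 10 with no minimum, 153 with median-of-ratios, 129 with quantile and 123 without mitochondrial and 45S transcripts. It was 33 with no variance trend, 112 with robust variances, 494 with array weights and 4 with the replicate block. The paper, which does not state its model, counted more differentially expressed genes at an adjusted p under 0.05 than any of these fits. The share of calls that were higher in Prdm16SMKO mice was 51.8% in the fit reported here. It was 39.9% with median-of-ratios, 35.7% with quantile and 56.1% with array weights. Over all alternatives it ran from 35.3% without control replicate 3 to 60% without control replicate 2. Without control replicates 1, 2 and 3 the calls numbered 17, 5 and 17, and without Prdm16SMKO replicate 2 they numbered 28. Without control replicate 2 the median of all genes moved to 0.11.

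Replicate numbers did not pair the libraries: deviations of same-numbered libraries correlated at −0.13, −0.11 and 0.02. No library correlated best with the one of its own number. With the replicate block, *Timp4* had an adjusted p of 0.278 (limma, Benjamini-Hochberg) and 0 of the 10 genes were called. With 3 libraries a group and no counts, a call near the threshold, such as that of *Timp4*, is not settled by these libraries.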
